A study of Mus musculus with 8 samples.

Results

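The transcription factor genes Ebf1, Casz1, Zbtb20, Tcf4 and Zbtb7a were followed across the sympathetic neuron subtypes of the mouse stellate ganglion and across mice. They are 5 of the 19224 genes measured, and they had been chosen by measured values of these same neurons, as factors that follow or oppose the transcript of neuropeptide Y (Npy). Their relation to Npy and the differences between subtypes are therefore given as descriptions, without a test. The study took stellate ganglia from C57BL6/J mice aged 8 to 10 weeks, in which an adeno-associated virus with GFP had been injected into the heart and one with tdTomato into the front paws, and sequenced single cells on the 10x Genomics system. All 8 samples belong to 1 condition, each is labelled as a mouse, and the ganglia of several mice are described as digested together. The table holds 1303 neurons in 8 subtypes named by the authors: NA1a, NA1b, NA1c, NA2 and NA3 are noradrenergic, Ach1 and Ach2 cholinergic and Glut glutamatergic. NA1a, NA1b and NA3 are the subtypes that the study took as cardiac.

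The stellate ganglion holds the postganglionic sympathetic neurons that reach the heart and forelimb, and many of them release neuropeptide Y beside noradrenaline. Zbtb20 and Zbtb7a belong to the BTB zinc finger family, whose members bind DNA through zinc fingers, pair through the BTB domain and mostly act as repressors. Tcf4 is an E protein, a basic helix-loop-helix factor that pairs with tissue-specific partners such as Hand2 on the E-box. Ebf1 is a helix-loop-helix factor of the EBF family, known from B cell and neuronal development, and Casz1 is a zinc finger factor known from the heart and the retina.

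In the GENCODE annotation of GRCm38, the build to which the authors mapped their reads, all these genes are protein-coding. Zbtb20 (ENSMUSG00000022708) spans chr16:42875881-43642602, Casz1 (ENSMUSG00000028977) chr4:148804429-148954889, Ebf1 (ENSMUSG00000057098) chr11:44617317-45008091 and Zbtb7a (ENSMUSG00000035011) chr10:81135220-81152995, all on the plus strand. No position is given for Tcf4 (ENSMUSG00000053477). Exons of Zbtb20 overlap those of Mir568 on the same strand and of Gm9968 on the opposite strand, and exons of Casz1 overlap those of Gm13205 on the opposite strand. The other genes have no overlapping exon of another gene. The 250 bases before a RefSeq start site are given for Zbtb20 and Casz1, since these had the clearest opposite patterns, and for Ebf1, which moved with Casz1 over NA1a, NA1b and NA1c. They are read 5′ to 3′ from RefSeq sequence of GRCm38.p6, and capitals mark matches to the E-box, CANNTG.

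Zbtb20, chr16:43247034-43247283, plus strand: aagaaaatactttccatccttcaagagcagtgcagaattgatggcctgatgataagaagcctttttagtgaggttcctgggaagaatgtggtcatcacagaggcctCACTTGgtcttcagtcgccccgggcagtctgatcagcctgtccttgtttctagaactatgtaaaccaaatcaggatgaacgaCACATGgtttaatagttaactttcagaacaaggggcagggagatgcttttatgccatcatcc
Casz1, chr4:148804142-148804391, plus strand: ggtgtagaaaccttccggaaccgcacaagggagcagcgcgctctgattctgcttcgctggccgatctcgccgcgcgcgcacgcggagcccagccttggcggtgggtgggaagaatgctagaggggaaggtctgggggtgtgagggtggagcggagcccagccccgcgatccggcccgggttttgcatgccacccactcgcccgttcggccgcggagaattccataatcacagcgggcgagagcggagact
Ebf1, chr11:44619978-44620227, plus strand: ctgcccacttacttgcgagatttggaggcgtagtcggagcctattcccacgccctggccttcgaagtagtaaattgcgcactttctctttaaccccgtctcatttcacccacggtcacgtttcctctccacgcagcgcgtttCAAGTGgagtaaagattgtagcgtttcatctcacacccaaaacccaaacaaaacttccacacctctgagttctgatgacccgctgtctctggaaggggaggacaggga

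The Casz1 window shown lies before the annotated gene, while the Zbtb20 and Ebf1 windows lie inside their genes, outside exons, before an internal RefSeq start site. The E-box reads the same on both strands and occurred 2 times in the Zbtb20 window, 1 time in the Ebf1 window and not in the Casz1 window, and 66.2% of 32841 RefSeq windows of this length hold at least 1. The windows shown held 27 CpG dinucleotides for Casz1, more than 91.4% of all windows, 14 for Ebf1 (70.6%) and 3 for Zbtb20 (29.0%). RefSeq gives Casz1 and Ebf1 another start site each, and windows of 1 gene differed as well. The other Casz1 window, inside the gene at chr4:148889097-148889346, held 2 CpG dinucleotides (18.8%), and that of Ebf1, which overlaps an exon and is not shown, held 9 (59.7%), both without an E-box. Such matches describe the letters only.

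Levels are mean unique molecular identifiers (UMIs) per 10000 UMIs of a neuron, averaged over the neurons of a subtype in a mouse with at least 10 of them, and errors are SDs over mice. Of the 8 mouse names in the table, 5 could each be matched to 1 sample (1002 neurons, 916296 to 1196621 UMIs per mouse), and the values by mouse rest on these. NA1a, NA1b, NA1c and NA2 had 5 such mice, NA3 had 3, Ach2 had 2, Ach1 had 1 and Glut had none. In these mice NA1a neurons were the deepest, with a median of 8181.5 UMIs, and NA3 neurons came next with 6643.5. The medians were 3338 in NA1b, 2778.5 in NA1c and 2341.5 in NA2. Over all mice, matched or not, the median was 6773 in NA3 and 6524.5 in NA1a. Levels were therefore also computed from neurons thinned to 2000 UMIs. The 7 genes checked as subtype markers each had their highest pooled level in the subtype they mark, for example Kcnt1 in NA1b, Sctr in NA1c and Vip in Ach2. Among the cell barcodes 21 occurred in 2 to 5 libraries and held 73 neurons, of which 55 were in NA2 and 15 in Ach2, so values of these subtypes are also given without them. No doublet removal is described, and none was applied here.

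Zbtb20 was high in NA1a and NA1c and low in NA1b and NA2. In NA1a its level was 9.53, 8.77, 9.68, 10.2 and 7.87 UMIs per 10000 in replicates 1 to 5, and in NA1b it was 4.11, 4.81, 2.97, 4.29 and 3.72. Every NA1a value lay above every NA1b value, with 9.21 ± 0.899 against 3.98 ± 0.688 (SD, n = 5 mice), a difference of 1.202 ± 0.302 on the log2 scale, or 2.30-fold. NA1c values ran from 9.95 to 11.2 and overlapped those of NA1a. In NA2 the level was 1.34, 0.670, 1.71, 1.21 and 2.47, below every NA1b value. The 3 mice with enough NA3 neurons had 5.29, 9.87 and 8.84, of which the last 2 lay within the range of NA1a, and Ach2 had 1.79 and 2.95. Over subtypes the order was thus NA1c, NA1a, NA3, NA1b, Ach2 and NA2, and the steps from NA3 to NA1b and from NA1b to Ach2 were the ones where neighbours did not overlap. The step to Ach2 was not kept without neurons of shared barcodes. Ach2 then averaged 2.81 ± 1.48 (SD, n = 2 mice), and its higher mouse lay within the NA1b range.

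Tcf4 had nearly the same order of subtypes. In NA1a it was 5.72, 6.96, 5.47, 6.55 and 5.13 UMIs per 10000, in NA1b 3.82, 2.60, 3.17, 3.52 and 2.40, and these did not overlap. The means were 5.97 ± 0.762 and 3.10 ± 0.600 (SD, n = 5), a difference of 0.93 ± 0.310 on the log2 scale. NA1c, with 4.59, 6.94, 7.27, 8.11 and 5.81, overlapped NA1a and stood above NA1b. NA2 had the lowest mean of the subtypes with at least 2 mice, with values from 0.937 to 2.06, and the 1 mouse with Ach1 had 1.44. Tcf4 parted from Zbtb20 in NA3, where it was 2.11, 3.68 and 2.65, below every NA1a mouse and overlapping NA1b. Levels are shares of a neuron's UMIs, and NA3 held 258 ± 83.5 UMIs per 10000 of glial markers (SD, n = 3 mice). Its neuronal markers summed to 49.0 ± 5.11, against 104 ± 6.53 in NA1a. The part of this in the Tcf4 level of NA3 was not tested.

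Casz1 ran the other way between NA1a and NA1b. Its level was 1.35, 1.82, 1.43, 1.54 and 1.30 UMIs per 10000 in NA1a and 4.76, 5.69, 3.38, 2.91 and 3.01 in NA1b, with no overlap and the lower value in NA1a in 5 of 5 mice. The difference NA1a minus NA1b was -1.31 ± 0.352 on the log2 scale, so that NA1b was 2.48-fold higher. NA1c had 1.92 ± 0.376 and overlapped NA1a, and Ach2 had 1.70 and 2.67. In NA2 the transcript was scarce, with 0.0823, 0.468, 0.256, 0.206 and 0.960, all below every NA1a value. NA3 was uneven between mice, at 0.445, 3.09 and 1.57. NA1b thus stood above NA1a, NA1c, NA2 and Ach2 for Casz1 and overlapped NA3 through 1 mouse. The separation from Ach2 was not kept without neurons of shared barcodes. Ach2 then averaged 2.65 ± 0.620 (SD, n = 2 mice), and its higher mouse lay within the NA1b range.

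Ebf1 was highest in the cholinergic Ach2 neurons, where the 2 mice had 4.76 and 11.6 UMIs per 10000. Without neurons of shared barcodes the Ach2 mean was 10.3 in place of 8.17. Among noradrenergic subtypes NA1b led with 3.09, 1.95, 4.40, 4.13 and 2.90, against 1.85, 2.14, 2.03, 1.93 and 1.64 in NA1a. Replicate 2 was the exception, since its NA1b level lay slightly under its NA1a level, and the 2 subtypes overlapped through it. The difference NA1a minus NA1b was -0.70 ± 0.491 on the log2 scale and was negative in 4 of 5 mice, and without replicate 2 it was -0.91. NA1b also exceeded NA1c, whose values ran from 0.802 to 2.78, within each of the 5 mice, by 1.04 ± 0.248 on the log2 scale, although the ranges over mice overlapped. From NA1b down to NA3 no neighbours in the order of Ebf1 levels were separated.

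Zbtb7a was lower in NA1a than in NA1b in each of the 5 mice, but by amounts that differed widely between them. Its level was 0.937, 0.627, 0.667, 0.881 and 1.28 UMIs per 10000 in NA1a and 2.40, 3.58, 0.942, 1.77 and 1.70 in NA1b. The difference was -1.07 ± 0.796 on the log2 scale, from -2.34 in replicate 2 to -0.38 in replicate 5, and the ranges overlapped because replicate 3 was low in NA1b. NA1c had 1.94 ± 0.630, with its lowest mouse at 1.31, above every NA1a mouse. NA2, NA3 and Ach2 were close to NA1a, at 0.717 ± 0.242, 0.759 ± 0.328 and 0.923 ± 0.243.

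**Figure D1:**
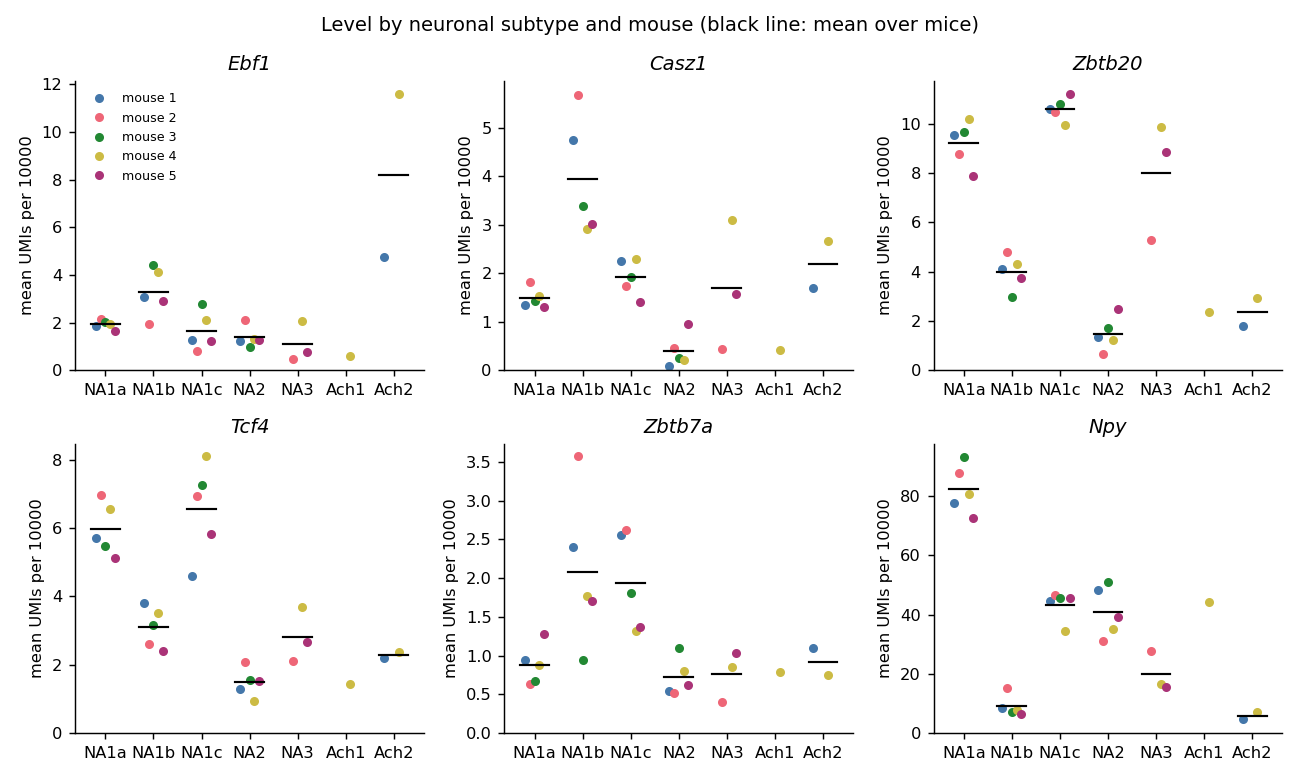
Mean UMIs per 10000 of each gene (vertical axis) in 7 subtypes (horizontal axis), with 1 point for each mouse that has at least 10 neurons of the subtype and a black line at the mean where there are 2 or more mice. Zbtb20 and Tcf4 are high in NA1a and NA1c, Casz1 is highest in NA1b, Ebf1 in Ach2, and Npy is high in NA2 where Zbtb20 and Tcf4 are low.

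These differences can be set beside all genes measured. Of the 5493 genes with a level of at least 0.5 in at least 5 of the mouse and subtype profiles, 393 (7.15%) had no overlap between the mice of NA1a and NA1b, 216 of them higher and 177 lower in NA1a. Zbtb20, Tcf4 and Casz1 were among them and Ebf1 and Zbtb7a were not, and since the contrast takes part in the choice of these genes, nothing is read from that count. Between NA1a and NA1c 7.59% of genes did not overlap, and among the 5 genes this held for Zbtb7a alone. Between NA1b and NA1c, where 2.75% of genes did not overlap, Casz1 was higher in NA1b, by 0.97 ± 0.482 on the log2 scale, and Zbtb20 and Tcf4 were lower, with differences of -1.41 ± 0.293 and -1.05 ± 0.448. The study also set the relation to Npy over these subtypes and NA1c, and the subtypes were clustered on the same neurons, so this contrast is not independent of the choice either. Between NA1a and NA3, with 3 NA3 mice, 23.1% of genes did not overlap, and of the 5 genes Tcf4 did not. In that contrast the median gene lay 0.27 higher in NA1a on the log2 scale.

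Each of the 5 genes had its own size of difference between NA1a and NA1b. The median difference of all 5493 genes was 0.00 on the log2 scale, and the absolute difference was smaller than that of Casz1 in 98.4% of genes, that of Zbtb20 in 97.9%, that of Zbtb7a in 97.0% and that of Ebf1 in 86.5%, with Tcf4 between the last 2. For Npy itself the difference was 3.26 ± 0.450. Neurons whose mouse name matched no sample, 134 in NA1a and 74 in NA1b, gave pooled levels of 12.7 and 4.51 for Zbtb20, 8.43 and 6.33 for Tcf4, 2.40 and 6.00 for Casz1, 3.14 and 5.76 for Ebf1 and 1.46 and 1.79 for Zbtb7a, the same direction for each gene.

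**Figure D2:**
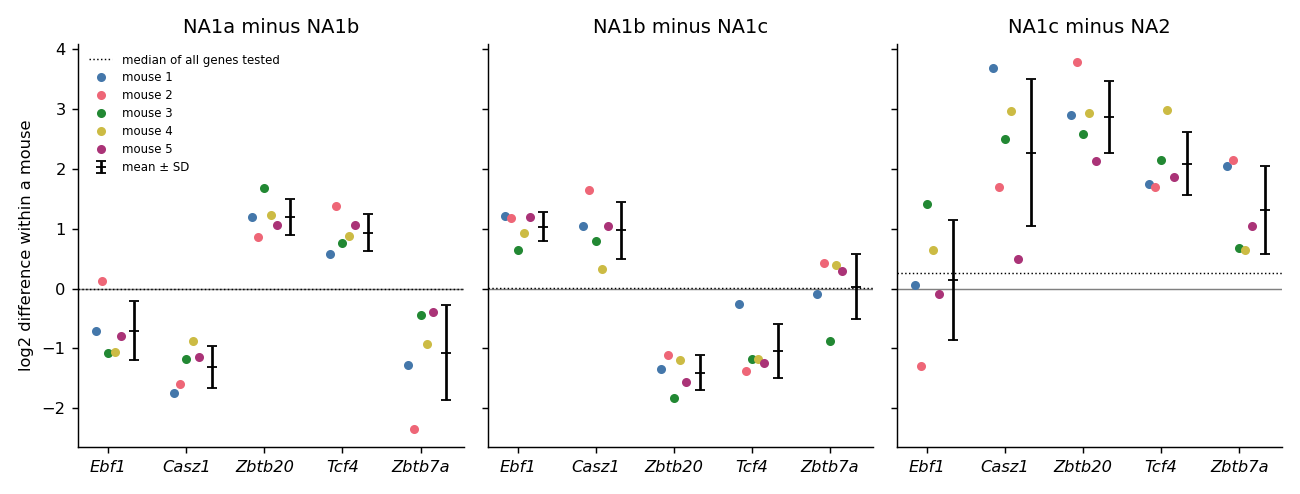
Differences of log2 (mean UMIs per 10000 plus 0.1) within a mouse (vertical axis) for the 5 genes (horizontal axis), with 1 point per mouse, the mean with its SD in black and a dotted line at the median of all genes tested. Zbtb20 and Tcf4 lie above 0 and Casz1 and Zbtb7a below 0 in all 5 mice for NA1a minus NA1b, and all genes but Ebf1 lie above 0 in all 5 mice for NA1c minus NA2.

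In NA2 the levels of Zbtb20 and Tcf4 did not run parallel to that of Npy. For Npy, which encodes the vasoconstrictor co-transmitter, NA1a had a level of 82.4 ± 8.26 UMIs per 10000, NA1c of 43.3 ± 5.11, NA2 of 40.9 ± 8.45, NA3 of 19.8 ± 6.74 and NA1b of 8.95 ± 3.61. NA1c and NA2 overlapped in Npy, with a difference of 0.10 ± 0.305 on the log2 scale, yet Zbtb20 was 7.30-fold and Tcf4 4.26-fold higher in NA1c. Casz1 was higher in NA1c by 2.27 ± 1.23 and Zbtb7a by 1.31 ± 0.733 on the log2 scale, each without overlap, and Ebf1 differed by 0.15 ± 1.00. This is a contrast in which 36.2% of all genes did not overlap and the median gene lay 0.26 higher in NA1c on the log2 scale. Without the neurons of shared barcodes 95 NA2 neurons in 4 mice remained, 33.2% of genes did not overlap, and Zbtb20, Tcf4 and Casz1 kept their separation with differences of 2.61 ± 0.460, 1.86 ± 0.404 and 2.80 ± 1.498, while Zbtb7a overlapped. The difference of Ebf1 was then 0.87 ± 0.802, with overlap. The NA2 levels of these 4 mice were 1.74 ± 0.632 for Zbtb20, 1.69 ± 0.357 for Tcf4, 0.275 ± 0.295 for Casz1, 0.925 ± 0.196 for Ebf1 and 0.762 ± 0.509 for Zbtb7a.

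Over the 20 profiles of NA1a, NA1b, NA1c and NA2, with each mouse centred on its own mean, Zbtb20 and Tcf4 moved together with a Pearson's r of 0.93, and Tcf4 ranked 17 among 5492 genes by likeness to Zbtb20 while Zbtb20 ranked 5 for Tcf4. Without NA2 their r was 0.89, and without neurons of shared barcodes 0.96. For some other pairs the sign or size of r changed with NA2. Casz1 and Zbtb20 had an r of 0.60 with NA2 and -0.84 without it, Casz1 and Tcf4 0.58 and -0.83, and Ebf1 and Zbtb20 0.02 and -0.86. For Zbtb20 and Npy r was 0.33 with NA2 and 0.91 without it, and for Casz1 and Npy it was -0.48 and -0.91. Ebf1 and Tcf4 had 0.18 and -0.69, Zbtb20 and Zbtb7a 0.44 and -0.26, Tcf4 and Zbtb7a 0.31 and -0.40, and Tcf4 and Npy 0.29 and 0.83. Less change was seen for Ebf1 and Casz1 (0.64 and 0.70), Casz1 and Zbtb7a (0.67 and 0.60) and Ebf1 and Npy (-0.65 and -0.73). The same held for Ebf1 and Zbtb7a (0.12 and 0.02) and Zbtb7a and Npy (-0.44 and -0.54). The points are 5 mice in a few subtypes and share libraries, so that r describes the subtypes and no p is given.

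**Figure D3:**
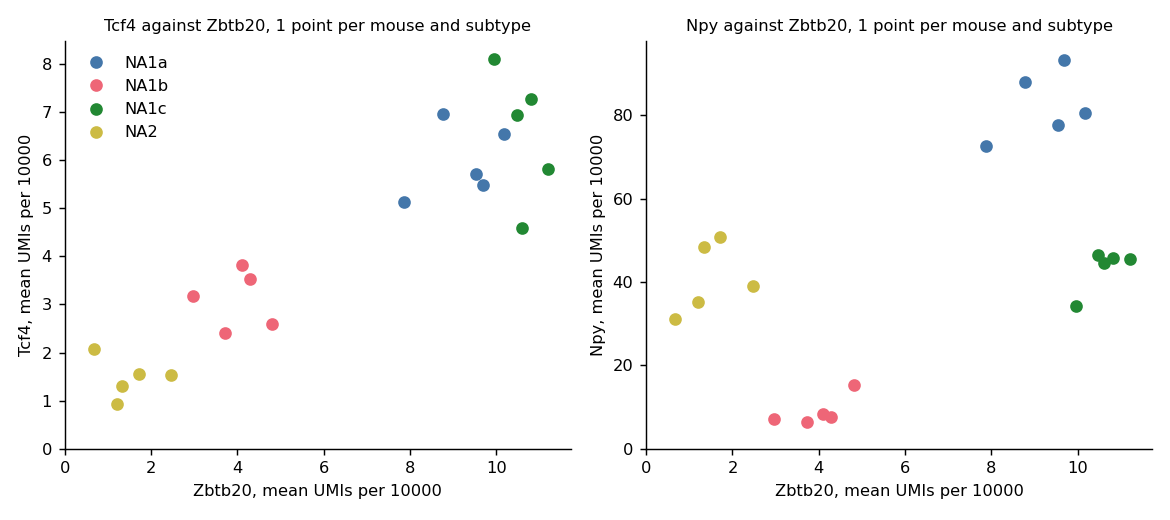
Level of Tcf4 (left) and of Npy (right) against that of Zbtb20, all in mean UMIs per 10000, with 1 point for each of 5 mice in 4 subtypes. Tcf4 rises with Zbtb20 over all 4 subtypes, whereas for Npy the NA2 points, with Zbtb20 of at most 2.47, stand as high as those of NA1c, with Zbtb20 of at least 9.95.

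The relation on which the genes were chosen is Pearson's r of the natural log values with Npy, taken over those NA1a, NA1b and NA3 neurons in which both transcripts were found. Within a mouse it rested on 30 to 101 neurons. For Zbtb20 r was 0.45, 0.31, 0.41, 0.41 and 0.45 in replicates 1 to 5, and for Tcf4 it was 0.25, 0.20, 0.41, 0.43 and 0.35. Ebf1 had -0.35, -0.35, -0.25, -0.62 and -0.42, and Casz1 -0.40, -0.46, -0.62, -0.21 and -0.20. The sign was the same in every mouse for each gene, also for Zbtb7a, whose r was -0.38 and -0.32 in replicates 1 and 2 and between -0.07 and -0.04 in the others. NA1a neurons were deeper than NA1b neurons, and at 2000 UMIs per neuron the mean r over mice was 0.30 for Zbtb20 in place of 0.41, 0.14 for Tcf4 in place of 0.33, -0.15 for Ebf1 in place of -0.41 and -0.21 for Casz1 in place of -0.39. When values were centred on the subtype of the neuron in its mouse, the mean r over mice at full depth was 0.26 for Zbtb20, 0.25 for Tcf4, -0.10 for Casz1 and -0.19 for Ebf1. For Zbtb7a it was 0.14 in place of -0.17, a change of sign. These values rest on neurons with both transcripts, and r over all neurons of a subtype differed from them. For Zbtb20, Tcf4, Casz1, Ebf1 and Zbtb7a, in this order, its mean was 0.09, 0.03, -0.14, -0.02 and -0.28 in NA1a. In NA1b it was 0.08, -0.06, -0.08, -0.27 and -0.06, and in 2 NA3 mice 0.27, 0.34, -0.40, 0.04 and 0.05. The cause was not tested.

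The same neurons were divided at the bottom 30% and the top 30% of Npy, at 5.58 and 45.8 UMIs per 10000. Among neurons of the matched mice the low stratum held 118 NA1b, 31 NA3 and 5 NA1a neurons, and the high stratum 147 NA1a, 10 NA1b and 8 NA3 neurons, so the strata largely restate the subtypes. From the low over the medium to the high stratum, Zbtb20 averaged 4.00 ± 1.09, 6.72 ± 2.08 and 9.47 ± 1.203 UMIs per 10000 (SD, n = 5 mice), and Tcf4 3.01 ± 0.485, 3.53 ± 1.16 and 5.69 ± 0.670. Casz1 averaged 3.95 ± 1.51, 2.80 ± 0.919 and 1.496 ± 0.402, Ebf1 3.49 ± 0.950, 2.06 ± 0.962 and 1.71 ± 0.251, and Zbtb7a 2.02 ± 1.03, 1.66 ± 0.711 and 0.756 ± 0.178. Zbtb20 and Tcf4 were thus higher and the other 3 genes lower in the high than in the low stratum, with Tcf4 differing mainly between the medium and high strata and Ebf1 between the low and medium strata. Within NA1b alone, the low and medium strata had 3.24 ± 0.889 and 4.89 ± 1.88 for Zbtb20 and 3.09 ± 0.542 and 3.22 ± 1.15 for Tcf4, while Ebf1 had 3.95 ± 0.954 and 2.38 ± 1.09 and was lower in the medium stratum in each of the 5 mice.

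**Figure D4:**
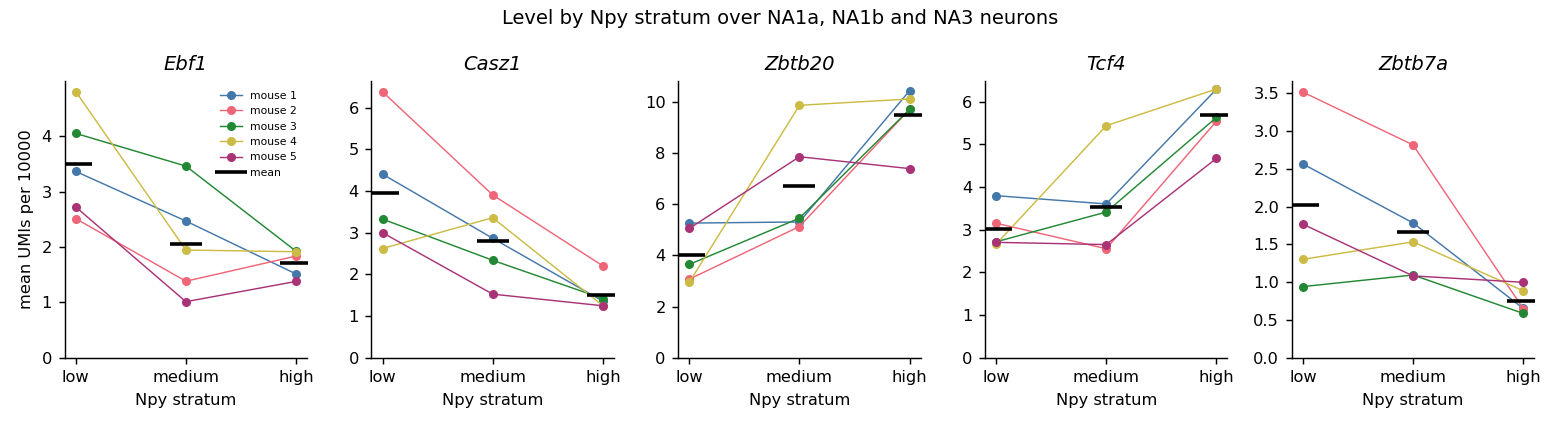
Mean UMIs per 10000 of each gene (vertical axis) in the low, medium and high stratum of Npy (horizontal axis) over NA1a, NA1b and NA3 neurons, with 1 line per mouse and a black bar at the mean. The high stratum lies above the low one in all 5 mice for Zbtb20 and Tcf4 and below it in all 5 for Ebf1, Casz1 and Zbtb7a.

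Within a subtype the 5 genes were only loosely tied to each other. Pearson's r over all neurons of a subtype in a mouse was averaged over mice for each of the 10 pairs, on 20 to 94 neurons per mouse. The mean r ran from -0.08 to 0.26 in NA1a, from -0.04 to 0.12 in NA1b and from -0.13 to 0.15 in NA1c, with medians of 0.06, 0.03 and -0.02. In NA1a and NA1c 9 of 10 pairs had an r under 0.15 in absolute size, and in NA1b 10 of 10. The pair with the largest r in NA1a and NA1c was Zbtb20 and Tcf4. Its r in NA1a was 0.18, 0.50, 0.02, 0.13 and 0.47 in replicates 1 to 5, a mean of 0.26 ± 0.215 beside a median of 0.02 for Zbtb20 with all genes, and 99.2% of genes had a lower one. At 2000 UMIs per neuron the mean was 0.14 in NA1a. At full depth the r of this pair in NA1c was 0.03, 0.09, 0.23, 0.24 and 0.16, in NA1b it was 0.21, 0.17, 0.12, -0.07 and -0.05, and in the 2 mice with enough NA3 neurons 0.46 and 0.19. It was positive in 5 of 5 mice in NA1a and NA1c and in 3 of 5 in NA1b, where the opposite signs of single mice leave a mean of 0.08 ± 0.127. Neurons of a library share its sequencing, and many hold no UMI of a gene, so weak values in such counts are no finding.

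Npy itself was not clearly tied to Zbtb20 or Tcf4 inside NA1a, with a mean r of 0.09 ± 0.326 and 0.03 ± 0.216, each positive in 2 of 5 mice. Among NA1a, NA1b and NA1c the largest mean values with Npy were those of Zbtb7a in NA1a, at -0.23, -0.03, -0.43, -0.18 and -0.51, and of Ebf1 in NA1b, at -0.46, -0.05, -0.09, -0.28 and -0.46, both negative in every mouse. In NA1c Zbtb7a had 0.07 ± 0.181 and Ebf1 0.02 ± 0.0850. Casz1 was negative with Npy in NA1a in 5 of 5 mice, with a mean of -0.14 ± 0.118. In NA3, where 2 mice had enough neurons, r with Npy was 0.24 and 0.29 for Zbtb20, 0.31 and 0.37 for Tcf4 and -0.63 and -0.17 for Casz1. In NA2, where 3 mice had enough neurons, the mean r with Npy was 0.23 for Zbtb20 and 0.24 for Tcf4, positive in 3 of 3 mice, and -0.20 for Ebf1, negative in 3 of 3. Without the neurons of shared barcodes 2 mice with 29 and 35 NA2 neurons remained, with 0.42 and 0.20 for Zbtb20, 0.43 and 0.08 for Tcf4 and -0.08 and -0.32 for Ebf1. Zbtb20 with Tcf4 had 0.13 ± 0.320 in NA2, and 0.41 and -0.27 in those 2 mice. Differences between subtypes in r were not tested.

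**Figure D5:**
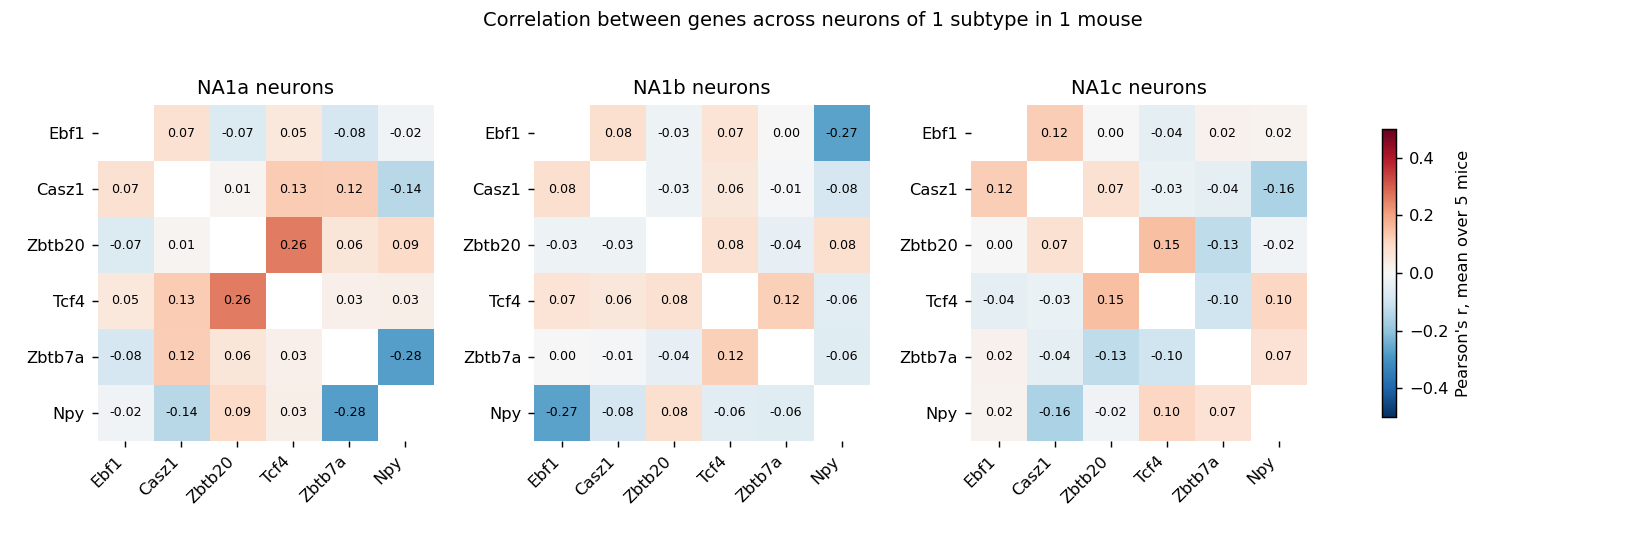
Pearson's r between the natural log values of 2 genes over the neurons of 1 subtype in 1 mouse, averaged over 5 mice, for the 5 genes and Npy (both axes) in NA1a, NA1b and NA1c, with red for positive and blue for negative values. Most cells are pale, and the darkest are Zbtb20 with Tcf4 in NA1a (0.26), Zbtb7a with Npy in NA1a (-0.28) and Ebf1 with Npy in NA1b (-0.27).

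The levels followed from how many neurons held a transcript as well as from how many each held. At 2000 UMIs per neuron, Zbtb20 was found in 78.7% ± 4.53 of NA1a neurons, 44.4% ± 9.42 of NA1b and 80.8% ± 4.81 of NA1c (SD, n = 5 mice), and Tcf4 in 68.7% ± 9.23, 46.0% ± 13.9 and 74.0% ± 12.1. Casz1 was found in 25.6% ± 8.15, 47.7% ± 10.7 and 28.5% ± 4.42, and Ebf1 in 31.3% ± 3.33, 52.6% ± 12.8 and 24.8% ± 9.57. At full depth the order of NA1a and NA1b turned for Ebf1, with 71.2% ± 6.28 in the deeper NA1a neurons and 66.8% ± 17.1 in NA1b, and the thinned value follows the level. Zbtb7a was found in 16.4% ± 4.94, 29.1% ± 10.4 and 29.2% ± 6.63. In the matched mice 176 NA1a, 195 NA1b and 169 NA1c neurons had at least 2000 UMIs, and shallower ones were left out. No cell type known to lack these genes was in the table, so the share that free RNA gives was not measured.

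At this depth the spread of single-neuron counts was set beside the mean. The variance of UMIs over their mean, which is 1 for pure sampling, was 1.40 ± 0.396 for Zbtb20 in NA1a, 1.68 ± 0.751 in NA1b and 1.63 ± 0.603 in NA1c. For Zbtb7a it was 0.90 ± 0.0759, 1.02 ± 0.203 and 0.98 ± 0.169, and for Casz1 in NA1b 1.24 ± 0.281. The mean ratio was thus highest for Zbtb20 in each of these subtypes, though its lowest mouse was at 1.03 in NA1a, 1.07 in NA1b and 0.882 in NA1c. In NA1a Tcf4 came close to it, at 1.34 ± 0.652. Single neurons reached 9 UMIs of Zbtb20 in NA1c and 9 of Tcf4 in NA1a. Both genes were found together in 97 of 176 thinned NA1a neurons, 55.1% against 53.0% for the product of their shares, in 38 of 195 NA1b neurons, 19.5% against 20.8%, and in 95 of 169 NA1c neurons, 56.2% against 56.2%. Casz1 and Ebf1 were found together in 48 of 195 NA1b neurons, 24.6% against 24.2%. Casz1 and Zbtb20 were found in the same barcode in 47 of 195 NA1b neurons, 24.1% against 23.5%. The share that doublets or free RNA give was not measured.

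The genes with the most similar profile over the 20 mouse and subtype profiles were Dgkh, a diacylglycerol kinase gene, Slc18a2, the vesicular monoamine transporter that loads noradrenaline, and Prom1 for Zbtb20, with r of 0.98, 0.96 and 0.96. Prom1, Dgkh and Osbpl3 were the nearest to Tcf4, at 0.96, 0.96 and 0.94. Gnas, which encodes the stimulatory G protein alpha subunit, and Fxyd2, a regulator of the sodium pump, were the most opposed to both, at -0.96 and -0.93 for Zbtb20 and -0.92 and -0.94 for Tcf4. For Slc18a2 NA1a had 11.8 UMIs per 10000, NA1b 8.28, NA1c 11.2 and NA2 3.88, and for Gnas the same subtypes had 37.3, 49.3, 27.02 and 93.3. Nearest to Casz1 were Ptpn5, a neuronal phosphatase gene, the collagen gene Col5a3 and the Mediator subunit gene Med13, at 0.97, 0.95 and 0.95, and most opposed the tubulin gene Tubb5 and the ribosomal gene Rpl15, at -0.96 and -0.95. Col5a3 was at 34.2 in NA1b and 7.06 in NA1a. Without NA2 the r of Casz1 with Med13 was 0.62.

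Ebf1 was nearest to the survival gene Bcl2, Man1a and the calcium channel subunit gene Cacna2d1, at 0.91, 0.84 and 0.81, and most opposed to the synapsin gene Syn2 and to Hoxc8, at -0.86 and -0.84. Zbtb7a was nearest to Mapt, which encodes tau, the kinesin gene Kif1a and Mapk11, at 0.94, 0.93 and 0.91, and most opposed to the ribosomal gene Rplp2 and to Bex2, at -0.93 and -0.91. Without neurons of shared barcodes the 25 values kept their sign, and those of Kif1a with Zbtb7a, Bex2 with Zbtb7a and Cacna2d1 with Ebf1 were 0.77, -0.73 and 0.72.

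Among relatives and partners of the 5 genes, none of those that passed the filter on level separated NA1a from NA1b, against 7.15% of all genes. Each list held at most 10 passing genes beside the 5, too few to read anything from this. In the EBF family and its partners, Ebf1 was the only one of 6 genes to pass the filter on level. Zfp423, a zinc finger partner of EBF factors, was at 0.169 ± 0.0804 in NA1a and 0.127 ± 0.0449 in NA1b, and Ebf2 at 0.0105 ± 0.0235 and at 0. Of the 7 E protein and Id protein genes 3 passed, and the 2 beside Tcf4, Tcf12 and Id3, overlapped between NA1a and NA1b. Id2 and Id3, which encode inhibitors that take up E proteins, were at 0.378 ± 0.0790 and 0.272 ± 0.115 in NA1a and 0.167 ± 0.138 and 0.132 ± 0.121 in NA1b, overlapping. Tcf12, named after its values were seen, was higher in NA1c than in NA2 without overlap, at 0.405 ± 0.229 and 0.0471 ± 0.0520. Of 11 basic helix-loop-helix partners 9 were in the table and 2 passed, neither without overlap. Hand1 was at 1.28 ± 0.353 and 0.853 ± 0.327, Hand2 at 7.37 ± 0.504 and 5.79 ± 0.964, and Tal1 was at 0 in NA1a and 0.0290 ± 0.0649 in NA1b.

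Of 46 genes with a ZBTB symbol or of related BTB zinc finger families, which include 2 transcripts named for the opposite strand, 8 passed the filter. The 6 beside Zbtb20 and Zbtb7a all overlapped between NA1a and NA1b, with a median difference of 0.39 on the log2 scale. Bcl6, a related repressor, did not pass the filter, with 0.206 ± 0.114 in NA1a and 0.0255 ± 0.0235 in NA1b, which did not overlap. Zbtb26, named after its values were seen, did not pass either and was lower in NA1a without overlap, at 0.113 ± 0.0493 and 0.235 ± 0.0657. For the NuRD corepressor complex, which binds several zinc finger repressors and Casz1, 10 of 14 subunit genes passed and none was without overlap between NA1a and NA1b, with a median of -0.15. Chd5 was at 5.41 ± 1.31 and 8.13 ± 2.27, Hdac1 at 0.212 ± 0.0734 and 0.0957 ± 0.0692 and Mta2 at 0.0985 ± 0.0997 and 0.182 ± 0.160. Between NA1c and NA2, 2 NuRD genes, Chd5 and Chd4, and beside Zbtb20 and Zbtb7a 2 further ZBTB genes, Zbtb4 and Zbtb37, were higher in NA1c without overlap, where 21.2% of all genes were higher, and no passing gene of the 5 lists was lower, where 823 of the 5493 genes tested were.

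NA3 and Ach1 carried transcripts of satellite glia, the cells that wrap these neurons. Summed over 10 glial markers, the 3 NA3 mice averaged 258 ± 83.5 UMIs per 10000 and the 1 mouse with Ach1 had 118. NA1a averaged 7.27 ± 0.834, NA1b 11.0 ± 7.28, NA1c 13.9 ± 7.62 and NA2 6.22 ± 2.47, and all 10 markers were above 0.5 in NA3 alone. The NA1a and NA1b ranges of this sum overlapped, at 6.52 to 8.70 and 3.40 to 21.8. In NA2 the marker Kcnj10 was at 0. Within NA3 Zbtb20 was lower in neurons with more of these markers, with r of -0.56 and -0.27 in 2 mice, and over all 99 NA3 neurons r was -0.36 for Casz1, -0.22 for Ebf1, -0.18 for Zbtb20, -0.08 for Tcf4 and -0.04 for Zbtb7a. Over the 64 Ach1 neurons it was -0.47 for Ebf1 and -0.34 for Zbtb20. In NA1b it was -0.23 on average over 5 mice for Ebf1 and under 0.10 in absolute size for the other genes. Markers of fibroblasts were also highest in Ach1 and NA3, with sums of 38.7 and 18.2 ± 11.3, and those of Schwann cells in NA3, with 15.1 ± 3.53. In NA1a, NA1b, NA1c and NA2 the sums for these lists and for the endothelial, immune and smooth muscle lists reached at most 3.70 in a mouse. The 6 neuronal markers summed to 49.0 ± 5.11 in NA3, against 104 ± 6.53 in NA1a and 102 ± 5.81 in NA1b. The part of other cells in the levels of NA3 and Ach1 was not tested, nor was that of free RNA.

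Pooled over all mice, matched or not, the 37 Glut neurons had 2.15 UMIs per 10000 of Ebf1, 1.41 of Casz1, 1.46 of Zbtb20, 2.03 of Tcf4 and 2.02 of Zbtb7a, with Zbtb20 found in 35.1% of them (exact 95% interval 20.2 to 52.5). The 64 Ach1 neurons had 2.75 of Zbtb20, 1.71 of Tcf4, 0.941 of Zbtb7a, 0.741 of Ebf1 and 0.503 of Casz1. Pooled in the same way, Ach2 had 1.94 of Zbtb20 and 1.73 of Tcf4, and NA2 had 1.38 and 1.40. In these pooled values Zbtb20 and Tcf4 were low in NA2, Glut, Ach1 and Ach2, with Zbtb20 highest among them in Ach1. By mouse, Zbtb20 averaged 2.37 in the 2 Ach2 mice and was 2.36 in the 1 mouse with Ach1. Without neurons of shared barcodes the Ach2 means were 2.81 ± 1.48 for Zbtb20 and 2.96 ± 0.180 for Tcf4 (SD, n = 2 mice). That Tcf4 mean lay within the NA1b range of 2.40 to 3.82, so low Tcf4 in Ach2 was not kept. Npy differed, at 13.8 in Glut, 43.2 in Ach1 and 4.34 in Ach2.

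Few neurons carried a reporter transcript, and their values for these genes can only be listed. The 3 GFP-positive NA1b neurons, labelled from the heart, held 6 UMIs of Casz1 and 1 of Zbtb20 in 5501 UMIs, and the 2 GFP-positive NA1a neurons held 3 of Casz1 and 16 of Zbtb20 in 23072. Of Ebf1, Tcf4 and Zbtb7a these NA1b neurons held 1, 0 and 3 UMIs and these NA1a neurons 3, 10 and 6. The 11 tdTomato-positive NA1b neurons, labelled from the paws, held 16 UMIs of Casz1, 5 of Zbtb20, 11 of Tcf4 and 9 of Ebf1 in 33007. Scaled to summed UMIs this was 4.85 per 10000 for Casz1 and 1.51 for Zbtb20, against 3.90 and 3.74 in the 300 NA1b neurons without tdTomato. Tcf4 was at 3.33 against 3.81, Ebf1 at 2.73 against 4.71 and Zbtb7a at 3.64 against 1.54. The median depth was 2527 UMIs with tdTomato and 3318 without it.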

How the data were processed

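Single-cell libraries of stellate ganglia were processed by the authors with Cell Ranger 2.1.1 and Seurat, per the labels and the study's methods, against the mouse genome GRCm38, and only cells between 500 and 6000 genes, below 20000 UMIs and below 15% mitochondrial RNA were kept. As deposited, each value is a natural log, taken by the authors after scaling the UMIs of a cell to 10000 and adding 1, with the authors' subtype and mouse name for each neuron. Taking the exponential gave whole UMIs for 100% of nonzero values, with a tolerance of 0.01 UMI. Of 8 mouse names, 5 matched 1 sample each and all lie in 1 batch. The other 3 names (301 neurons) matched labels of different samples and were used only pooled.

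Levels are means over neurons per mouse and subtype with at least 10 neurons, and log2 differences were taken within a mouse with a pseudocount of 0.1 UMIs per 10000. Genes with a level of at least 0.5 in at least 5 profiles formed the background. Correlations within subtypes used at least 20 neurons per mouse, with plain means over mice, and means of r with Npy over NA1a, NA1b and NA3 were taken on Fisher's z. Ganglia of several mice may have been joined in a library, so that SDs measure the spread between libraries. Intervals cover counting error only. No test was run, since the genes were chosen on these values and the subtypes were clustered on these neurons. The genes and lists were chosen with earlier results of these data known.

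Genes named are the 5 factors, Npy, for each factor the 3 genes most like it and the 2 most opposed over 20 profiles, and from each list the 3 with the largest absolute difference between NA1a and NA1b. Further genes are said to be named after their values were seen, apart from Mir568, Gm9968 and Gm13205, named for their position, the marker genes, and Chd4, Zbtb4 and Zbtb37, which make up a count. The scripts were tested on simulated data. Python 3.11.15, NumPy 2.4.6, pandas 2.3.3, SciPy 1.17.1 and matplotlib 3.10.9 were used. Alternatives covered the pseudocount, filter, minimum of neurons, depth, shared barcodes and each mouse left out. Those on shared barcodes, with the NA2 correlations, on levels at equal depth, on centring by the median of all genes and on the comparison of NA1c with NA2 were chosen after seeing the data.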

Additional observations from a re-analysis of the deposited data

How the results depend on the processing

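Over 43 results and 244 alternatives, 220 values moved by less than the spread between mice or, for gene counts, by less than 1.5 times, 23 moved further and 1 reversed. A change of sign in a value smaller than its SD was not counted as reversed, as for Ebf1 between NA1c and NA2 (-0.17 without replicate 3) and the mean r over the 10 pairs (in NA1b -0.01 at 2000 UMIs, in NA1c -0.03 by Spearman). The differences between NA1a and NA1b kept their sign in all 75 alternatives, and those beyond 1 SD were -0.82 for Casz1 from mean natural log values and 0.41 for Tcf4 in pooled neurons of unmatched mice. Leaving out 1 mouse gave -0.91 to -0.61 for Ebf1, -1.42 to -1.201 for Casz1, 1.08 to 1.29 for Zbtb20, 0.82 to 1.02 for Tcf4 and -1.24 to -0.76 for Zbtb7a, and -0.17 to 0.51 for Ebf1 between NA1c and NA2. At 2000 UMIs per neuron levels were 0.569 for Ebf1 in NA2, 1.71 for Casz1 in NA1a and 10.3 for Zbtb20 in NA1a, and Ebf1 in NA2 was 0.925 without shared barcodes. The count of genes without overlap between NA1a and NA1b was 174 at a minimum level of 2 (1243 genes tested), 250 at 2000 UMIs, and 535 to 733 with 1 mouse left out, where fewer values have to be separated (706 without replicate 3, 733 without replicate 5). It was 573 with no filter, since more genes were tested.

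The relation to Npy was weaker at 2000 UMIs, with r of -0.15 for Ebf1, -0.21 for Casz1, 0.30 for Zbtb20 and 0.14 for Tcf4, and for Zbtb7a none could be given. Centred on the subtype, r in neurons with both transcripts was -0.19 for Ebf1, -0.10 for Casz1, 0.26 for Zbtb20 and 0.25 for Tcf4. For Zbtb7a it was, reversed, 0.14. Over all neurons, without centring, r was -0.22 for Ebf1. In neurons with both genes the mean r over the 10 pairs was 0.21 in NA1b and 0.10 in NA1c, and that of Zbtb20 with Tcf4 was 0.35 in NA1b and 0.0070 in NA1c. The likeness of Zbtb20 and Tcf4 over profiles was 0.92 to 0.97 with 1 mouse left out, and 0.97 without replicate 2. The cause of these shifts was not tested. The samples form 1 group, so that no groups of samples could be paired. Subtypes were compared within each mouse.

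NA3, Ach2, Ach1 and Glut rest on at most 3 mice, and counts of a few UMIs per neuron limit every correlation within a subtype.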
